A study of Mus musculus with 2 samples.

Results

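A group of 10 enzymes and partner proteins of DNA methylation and of Polycomb repression were followed in activated CD4 T helper cells with and without the label of a Gfi1 knockout. They were taken by gene name from the array's annotation. They are the DNA methyltransferases Dnmt1, Dnmt3a and Dnmt3b, the maintenance cofactor Uhrf1, the dioxygenases Tet1, Tet2 and Tet3, and Ezh2, Suz12 and Eed, the core of Polycomb repressive complex 2 (PRC2). These 10 genes were read by 19 probes, out of 20738 genes with a named probe and 55681 probes in all. Each of the 19 member probes had 1 spot per array.

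The study set 1 culture labelled Gfi1 knockout (KO-labelled below) against 1 culture labelled Gfi1 wild type (WT-labelled), both of C57BL/6 spleen. Gfi1 encodes a zinc-finger repressor of transcription. For both, naive CD4 T cells were activated over 2 days through the beta chain of the T cell receptor (antibody at 3 µg/ml) and through CD28 (antibody at 1 µg/ml), in IL-2 (10 ng/ml) with antibodies that neutralise IL-4 and IFN-γ (5 µg/ml each). RNA was read on 1-colour (Cy3) arrays, 1 array per label. How the knockout was made, whether animals were pooled, and their age and sex are not given in the sources used here.

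In dividing cells DNMT1, guided by UHRF1 to newly copied DNA, renews the methyl groups on CpG sites, while DNMT3A and DNMT3B set new ones. TET enzymes oxidise methylcytosine, which starts its removal. EZH2 is the catalytic subunit of PRC2 and methylates a lysine of histone H3 to keep genes silent, SUZ12 holds the complex together and EED binds the finished mark. In mouse CD4 T cells DNA methylation and PRC2 are known to hold cytokine and lineage factor genes shut until the matching signals arrive.

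With 1 array per label there is no spread between cultures and no test is possible, so no p-value is given. Differences are log2 values, KO-labelled minus WT-labelled, after each array was scaled to its 75th percentile. A gene's difference is the mean over its probes, and an SD after it is over those probes. The number of arrays limits the precision. A measure of spot noise came from those of 399 probes printed on 10 spots each that read 15 units or more. Over the spots of such a probe the differences had a median SD of 0.35 for signals of 15 to 50 units (32 probes). The median SD was 0.11 for 50 to 500 (63 probes), 0.05 for 500 to 5000 (103 probes) and 0.04 above (40 probes). This measure covers variation within the arrays and not between cultures.

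The arrays need a caution on their labels and cells. Gfi1 itself read 18100 units in the KO-labelled library and 4260 units in the WT-labelled library, a 4.15-fold difference against the label unless its single probe lies outside the deleted part, and the place of the probe is not given here. Every direction below rests on the labels. The X-linked Xist was at least 31.3-fold lower, at 3.86 units KO-labelled and 447 WT-labelled. Eif2s3y, a gene of the Y chromosome, was higher by at least 266-fold, at 3870 units KO-labelled and 2.91 WT-labelled. The libraries thus also differ in sex-linked RNA, and for every difference below, those of all 10 members included, the genotype label and sex cannot be told apart. Of all detected genes 58.4% were lower and 41.6% higher in the KO-labelled library, shares to set beside each marker count that follows. All 5 detected genes of a CD4 T cell marker list, Cd3e, Cd3g, Cd5, Cd28 and Cd4, were lower in the KO-labelled library. Their median was -0.41, or -0.21 without spots above feature number 50000, a spot's number on the array. Their summed signals were 93900 units under the KO label and 121000 under the WT label. Cd4 itself stood at -0.14 ± 0.03 (2 probes), within the quartiles of all detected genes (-0.20 and 0.14). The CD8 T and NK cell markers, all 8 of them detected, were higher in the KO-labelled library (median 0.99), with sums of 1120 units KO-labelled and 438 WT-labelled. Among them Cd8a, Klrk1, Klrb1c and Ncr1 were under the detection floor on the WT-labelled array, and so could only read higher. Klra1 stood at 1.01 ± 0.98 (2 probes). Of 4 detected B cell markers 3 were higher, with sums of 900 units KO-labelled and 358 WT-labelled, and with Pax5 detected on neither array. The gap in these sums came mostly from Ms4a1 (221 units KO-labelled, 18.9 WT-labelled) and Blnk (386 units KO-labelled, 30.6 WT-labelled). Cd79b stood at -0.17 and Cd79a at 0.41 ± 0.72 (2 probes). Of 4 detected myeloid markers 2 were higher and 2 lower, with sums of 624 units KO-labelled and 310 WT-labelled. The gap in these sums came from Mpeg1, at 335 units KO-labelled and 11.7 WT-labelled. Csf1r stood at 0.01 ± 0.19 and Itgam at -0.07 ± 0.29 (3 probes each). Mpeg1 was under the floor on the WT-labelled array, Adgre1 on the KO-labelled array, and Cd14 and Lyz2 were detected on neither. The part of these cells in the results below was not tested, and in such bulk RNA fewer cells of a type and less RNA per cell cannot be told apart.

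All 10 members were detected on both arrays, and each differed by less than 1.5-fold. A 2-fold difference was reached upward by 0 of the 10 and downward by 0, against 3.62% and 1.52% of 13411 detected genes. At 1.5-fold the counts were again 0 and 0, against 7.67% and 4.25% of all genes. Such shares leave few or none to expect among 10 genes, so these counts do not set the members apart. Of the members 7 were lower and 3 were higher in the KO-labelled library, where 58.4% of all genes were lower and 41.6% higher. The median over the members was -0.13, and that over all detected genes was -0.05 with quartiles of -0.20 and 0.14. The members ran from Dnmt3a, 1.48-fold lower, to Tet2, 1.25-fold higher. By probe, 14 of 19 were lower and 5 higher.

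**Figure D1:**
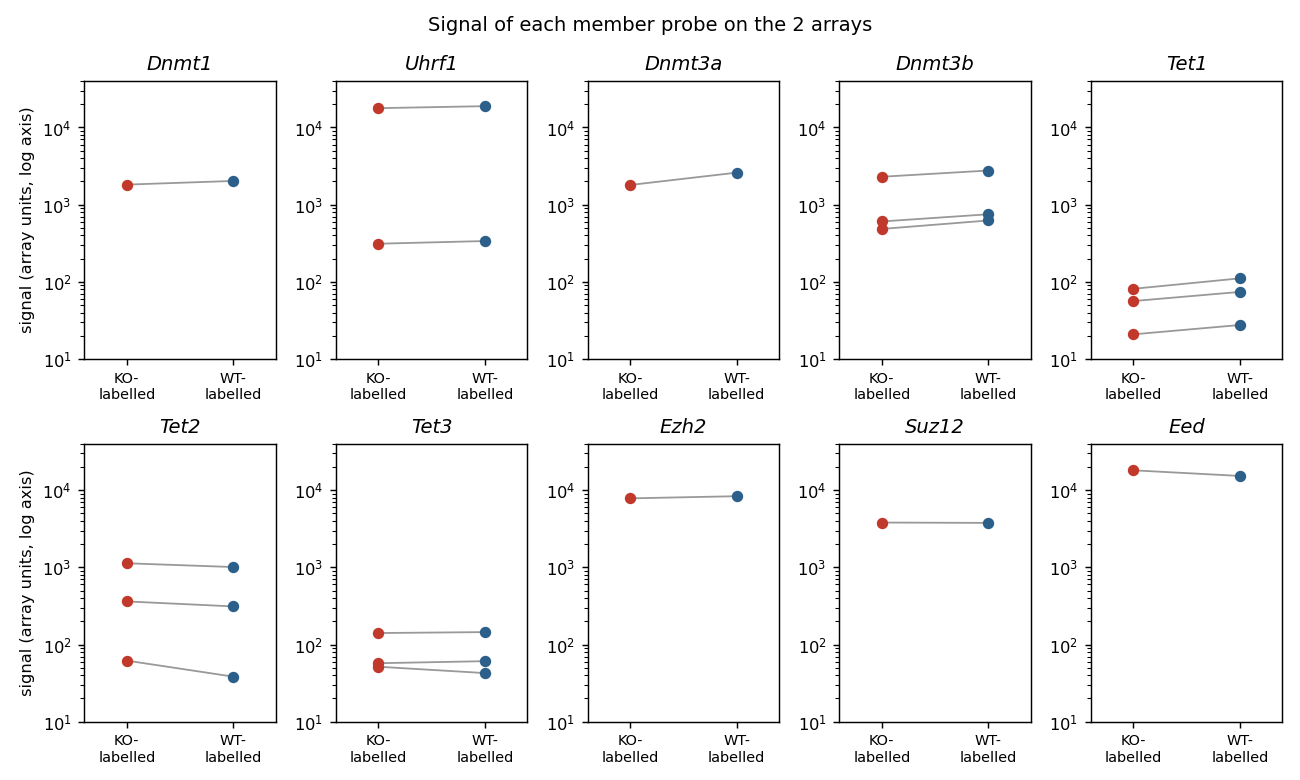
Signal of each of the 19 member probes (array units, log axis), with the KO-labelled library on the left of each panel and the WT-labelled library on the right, and a line joining the readings of a probe. All lines of Dnmt3b and Tet1 slope the same way, and those of Tet3 do not.

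The de novo methyltransferases and Tet1 were the lowest members. Dnmt3a, which sets new methylation and is known for closing cytokine loci in T helper cells, read 1800 units in the KO-labelled library and 2600 units in the WT-labelled library on its single probe, a difference of -0.56. This is 1.48-fold lower and many times the spot SD of 0.05 at that signal. Of 4653 genes with signals of 500 to 5000 units, 1.61% were as low or lower. Its spot has a feature number above 50000. Among spots of 500 units or more, 6.15% of 2616 above that number and 5.51% of 10307 at lower numbers differed by at least as much as Dnmt3a in either direction.

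Dnmt3b, the second de novo enzyme, was read by 3 probes that all pointed the same way. The brightest probe gave 2300 units in the KO-labelled library and 2770 units in the WT-labelled library. The second gave 606 units KO-labelled and 751 WT-labelled, and the third gave 485 units KO-labelled and 624 WT-labelled. The differences were -0.30, -0.34 and -0.40, with a mean of -0.35 ± 0.05 (SD, 3 probes), or 1.27-fold lower. Among genes of like signal 6.38% were as low or lower. Dnmt3l, the cofactor of these enzymes in germ cells without catalytic activity, read close to the floor, at 20.5 units KO-labelled and 20.0 WT-labelled.

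The annotated starts of Dnmt3a illustrate the kind of promoter most members have. The window with the most CpG sites among its 3 is shown because this gene had the largest difference. It spans 250 bases before to 50 after the start on the plus strand (chr12:3806910-3807209, RefSeq, GRCm38.p6). It holds 47 CpG sites, where the median over 32851 such windows was 7. Capitals mark the GC box word GGGCGG on either strand, found 7 times here, some of them overlapping, and present in 35.7% of all windows.
Dnmt3a: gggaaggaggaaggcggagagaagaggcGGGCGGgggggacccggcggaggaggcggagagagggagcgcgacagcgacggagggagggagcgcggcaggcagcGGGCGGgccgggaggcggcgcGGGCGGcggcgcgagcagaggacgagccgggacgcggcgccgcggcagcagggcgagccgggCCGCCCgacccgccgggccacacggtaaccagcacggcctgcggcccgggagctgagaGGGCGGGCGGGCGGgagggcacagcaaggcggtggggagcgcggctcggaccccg
All 10 members had a window, with 17 to 57 CpG sites in the richest window of each gene, and 8 of the 10 held GGGCGG.

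The genes of maintenance methylation differed less. Dnmt1, which copies methylation onto new strands, read 1820 units in the KO-labelled library and 2030 units in the WT-labelled library, a difference of -0.19 on 1 probe. This exceeds the spot SD of 0.05, but 23.1% of genes of like signal were as low or lower. Uhrf1, which reads hemimethylated DNA and recruits DNMT1, gave 17800 units KO-labelled and 18900 WT-labelled on the first of its probes. The second gave 312 units KO-labelled and 338 WT-labelled. Its differences of -0.12 and -0.15 had a mean of -0.13 ± 0.02 (SD, 2 probes). The difference of Dnmt3a was lower than that of Dnmt1 by 0.37 on the log2 scale and that of Dnmt3b by 0.16, and these gaps do not depend on the constant used to scale an array.

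Partners of the methyltransferases were lower about as often as genes at large. Of 11 detected 7 were lower and 4 were higher, beside 58.4% lower among all genes, the median being -0.13 (-0.06 under cyclic loess) and 0 past 2-fold. Cdca7 stood at -0.34, Hells, the remodeller that works with CDCA7, at -0.29, and Lig1, the ligase of replication, at -0.24. Usp7, which deubiquitinates UHRF1 and DNMT1, stood at -0.26 ± 0.22 (2 probes). Pcna, the sliding clamp that tethers DNMT1, stood at -0.10 and Uhrf2, the paralog of Uhrf1, at 0.14 ± 0.15 (2 probes). Of 26 detected genes of dividing cells 25 were lower, with a median of -0.20, quartiles of -0.23 and -0.09, and 0 past 2-fold. Dnmt1, Uhrf1 and Ezh2 lay within those quartiles, but also within the quartiles of all detected genes, and Dnmt3a and Dnmt3b lay below both. The part of cell division in these values was not tested.

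Letters typical of E2F sites, which are known from genes of the S phase, were also looked for in the same windows. The words TTTCCCGC, TTTGGCGC and TTTCGCGC were searched on both strands. At least 1 of the 3 was present in the richest window of 4 members, Dnmt1, Uhrf1, Ezh2 and Suz12, and in that of none of the other 6. Over all windows the share was 1.84%, and over the 10320 windows with at least 17 CpG sites it was 4.22%. The windows of Uhrf1 (chr17:56304063-56304362, plus strand), Ezh2 (chr6:47594981-47595280, minus strand) and Suz12 (chr11:79992856-79993155, plus strand) are shown on the strand of the gene, with the E2F-type word in capitals. In Suz12 the second run of capitals is a match to AATCANNGC, a word like the core of GFI1 sites, which overlaps a CCAAT word.
Uhrf1: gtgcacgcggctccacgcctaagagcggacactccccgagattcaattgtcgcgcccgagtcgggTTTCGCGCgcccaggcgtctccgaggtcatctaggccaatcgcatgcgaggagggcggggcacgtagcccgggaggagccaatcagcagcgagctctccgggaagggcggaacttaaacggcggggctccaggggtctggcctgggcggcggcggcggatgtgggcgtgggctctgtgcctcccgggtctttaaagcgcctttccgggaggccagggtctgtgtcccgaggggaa
Ezh2: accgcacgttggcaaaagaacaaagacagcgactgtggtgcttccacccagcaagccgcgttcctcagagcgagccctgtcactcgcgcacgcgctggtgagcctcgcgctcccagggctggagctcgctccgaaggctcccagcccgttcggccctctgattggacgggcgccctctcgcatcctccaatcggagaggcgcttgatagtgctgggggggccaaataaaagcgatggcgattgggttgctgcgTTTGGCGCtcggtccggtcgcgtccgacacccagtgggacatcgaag
Suz12: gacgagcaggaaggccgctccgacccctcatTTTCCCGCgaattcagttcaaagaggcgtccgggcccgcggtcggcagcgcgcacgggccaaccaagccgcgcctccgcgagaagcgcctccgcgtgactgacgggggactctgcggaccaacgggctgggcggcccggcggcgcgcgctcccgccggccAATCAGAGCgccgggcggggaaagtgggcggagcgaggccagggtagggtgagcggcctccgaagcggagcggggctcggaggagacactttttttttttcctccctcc
The AATCANNGC word was in 3.28% of all windows and in no other member's window. A match of letters is a description and not a site, and 2 of the 4 genes, Dnmt1 and Uhrf1, have further annotated starts whose windows lack these words.

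**Figure D2:**
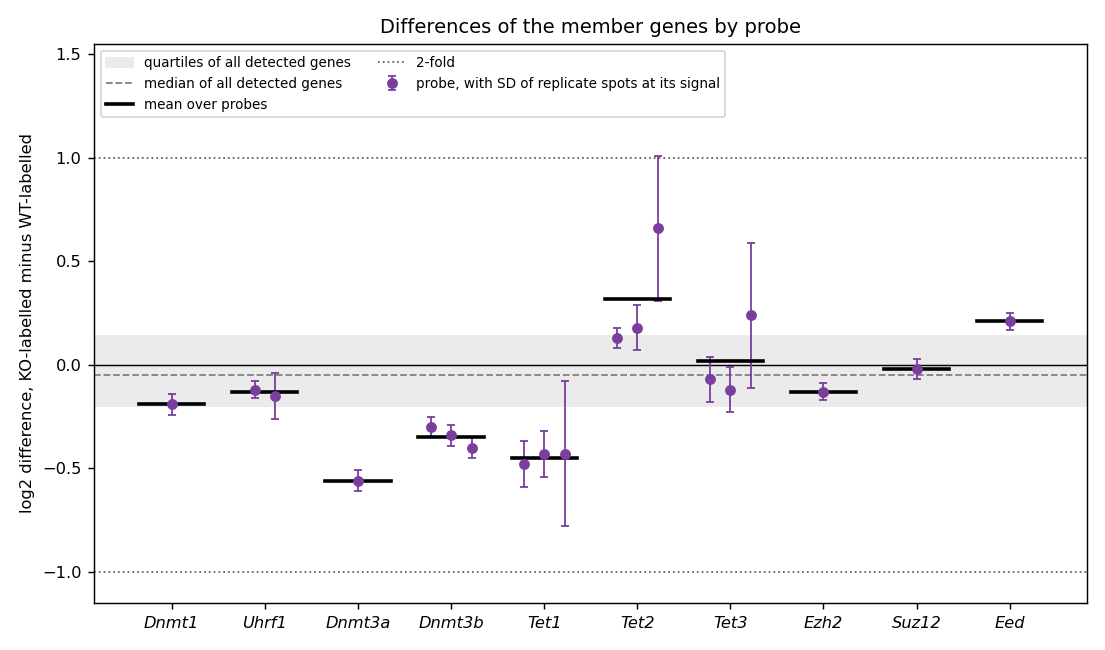
Log2 difference of every member probe, KO-labelled minus WT-labelled, with the median SD of replicate spots at that signal as error bars and the mean over probes as black bars. The grey band gives the quartiles of all detected genes (-0.20 to 0.14). By their means, Dnmt3a, Tet1 and Dnmt3b lie below it while Tet2 and Eed lie above it. The brightest Tet2 probe (0.13) lies within the band, and the dimmest Tet3 probe (0.24) lies above it.

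The TET genes differed from each other. Tet1 was dim, and its 3 probes read 81.3, 56.4 and 20.9 units in the KO-labelled library, against 111, 74.1 and 27.6 units in the WT-labelled library. Their differences of -0.48, -0.43 and -0.43 had a mean of -0.45 ± 0.03 (SD, 3 probes), or 1.36-fold lower. The first and second probes exceed the spot SD of 0.11 at their signal, and the third is little beyond the spot SD of 0.35 at its own. Among genes with signals of 50 to 500 units 8.70% were as low or lower.

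Tet2, the TET enzyme known for promoting cytokine expression in mouse T helper cells, had the highest mean over probes of the members. Its brightest probe, with a feature number above 50000, read 1130 units in the KO-labelled library and 1010 units in the WT-labelled library. Its second probe read 362 units KO-labelled and 312 WT-labelled. The third read 61.9 units KO-labelled and 38.4 WT-labelled and is annotated to another transcript record than these. The differences were 0.13, 0.18 and 0.66, with a mean of 0.32 ± 0.29 (SD, 3 probes). The mean rests largely on the dimmest probe. With the brightest probe alone the value was 0.13, with the median over probes 0.18 and with the floor at the 75th percentile 0.16, each below the 0.21 of Eed.

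Tet3 showed no common direction. Its probes read 141, 57.3 and 51.6 units in the KO-labelled library and 145, 60.9 and 42.7 units in the WT-labelled library. The differences of -0.07, -0.12 and 0.24 gave a mean of 0.02 ± 0.20 (SD, 3 probes), smaller than the spread between probes. With the brightest probe, or with the median over probes, the sign changed to -0.07. The difference of Tet2 exceeded that of Tet1 by 0.77 on the log2 scale, a gap larger than the SD over the probes of either gene.

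Genes that act with or after the TET enzymes held the largest differences among the partners. Of 19 detected 12 were lower and 7 were higher, beside 58.4% lower among all genes. The median was -0.04. It turned to 0.03 under cyclic loess, as the median of all genes did (0.01), and to -0.18 without spots above feature number 50000. Gadd45g, a stress-induced gene linked to DNA demethylation and, in T helper cells, to p38 signalling and IFN-γ, read 7290 units in the KO-labelled library and 1480 units in the WT-labelled library. It was 4.82-fold higher. Gadd45b read 11200 units KO-labelled and 6680 WT-labelled (0.71), and Gadd45a read 221 units KO-labelled and 219 WT-labelled (-0.02). Cxxc5, whose CXXC domain protein is known to bind and restrain TET2, was 2.30-fold lower, at 119 units KO-labelled and 268 WT-labelled. Neil1, a glycosylase of base excision repair, stood at 0.48 and the endonuclease gene Apex1 at -0.33. Tdg, the glycosylase that removes the oxidised bases, stood at -0.04 ± 0.12 (3 probes), a value that changed sign under cyclic loess. Idh1 and Idh2, which make the TET cosubstrate, stood at 0.00 and 0.08.

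In the PRC2 core Ezh2 and Eed pointed opposite ways. Ezh2 read 7840 units in the KO-labelled library and 8360 units in the WT-labelled library, a difference of -0.13 on 1 probe against a spot SD of 0.04. Of 1989 genes above 5000 units 32.4% were as low or lower. Suz12 read 3810 units KO-labelled and 3770 WT-labelled, and after scaling its difference was -0.02, within the spot SD of 0.05. Its sign changed under quantile normalization, cyclic loess and no scaling, where it reached 0.05. Eed read 18100 units KO-labelled and 15300 WT-labelled, a difference of 0.21 or 1.16-fold higher, and 9.05% of genes above 5000 units were as high or higher. Eed exceeded Ezh2 by 0.34 and Suz12 by 0.23 on the log2 scale.

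The accessory genes of PRC2 centred on no difference. Of 10 detected 5 were higher and 5 lower, with a median of 0.00 and 0 past 2-fold. Ezh1, the paralog of Ezh2 that is known to act in resting cells, stood at 0.12 ± 0.16 (3 probes), and the histone chaperones Rbbp4 and Rbbp7 at 0.01 ± 0.14 and -0.10 ± 0.03 (2 probes each). In a grouping made after the values were seen, 5 genes of the PRC2.1 assembly had a median of -0.04. Among them Mtf2 and Phf19, Polycomb-like proteins that guide PRC2 to CpG islands, stood at -0.38 and -0.31, the third Polycomb-like gene, Phf1, at 0.23 ± 0.11 (2 probes), Epop at 0.00 and Lcor at -0.04 ± 0.12 (2 probes). Jarid2 and Aebp2, which form the PRC2.2 assembly, stood at 0.33 and 0.32 ± 0.05 (2 probes). Mtf2 read 2470 units in the KO-labelled library and 3150 in the WT-labelled library, and Jarid2 read 353 units KO-labelled and 274 WT-labelled.

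Polycomb repressive complex 1 (PRC1) reads the PRC2 mark and ubiquitinates histone H2A. Of its 22 detected genes 13 were lower and 9 higher, beside 58.4% lower among all genes. PRC1 had a median of -0.06 and 0 genes past 2-fold. Its catalytic genes Rnf2 and Ring1 stood at -0.14 and -0.15. Bmi1, of the canonical complex, stood at -0.35 ± 0.02 (2 probes). The largest positive values were those of Pcgf5, at 0.47 ± 0.08 (3 probes, 5330 units KO-labelled and 3760 WT-labelled), Phc3, at 0.44 ± 0.64 (2 probes), and Rybp, at 0.43. In a grouping made after the values were seen, 10 canonical genes had a median of -0.20 with 7 lower, and 10 genes of variant complexes a median of 0.09 with 6 higher.

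**Figure D3:**
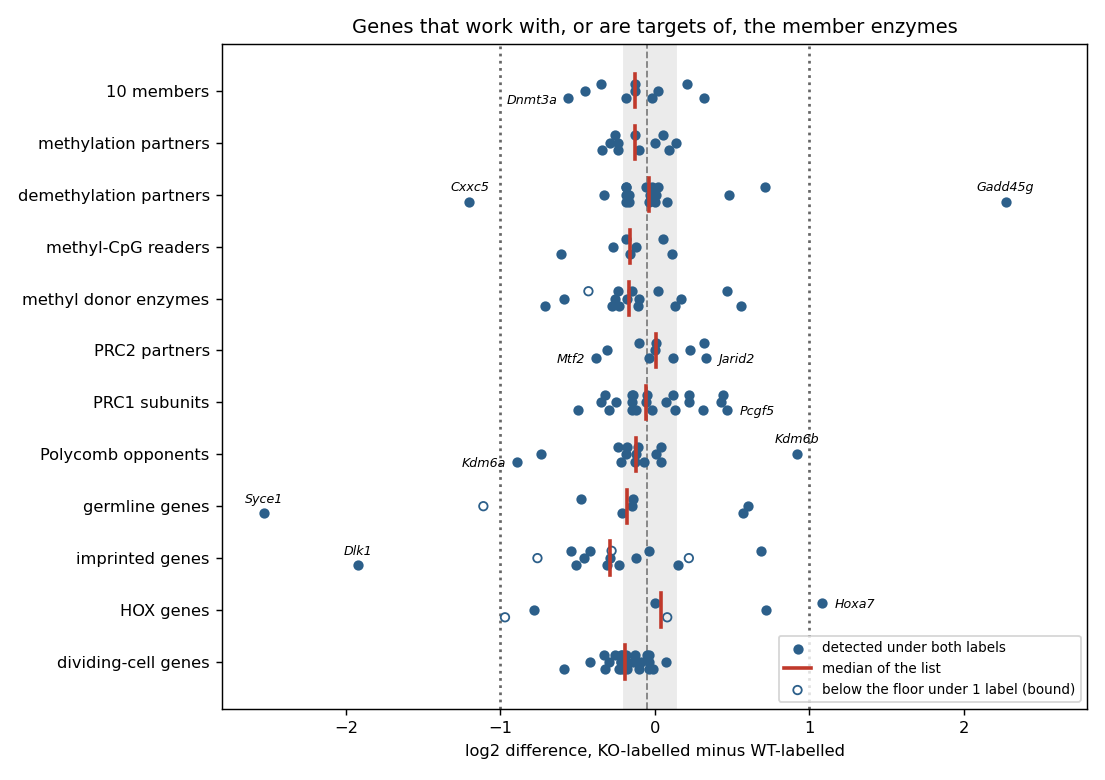
Log2 differences (KO-labelled minus WT-labelled) of the 10 members, of genes that act with them or are silenced by them, and of genes of dividing cells. The lists of T cell target genes are not drawn. List medians are in red, and open points mark a gene below the floor under 1 label. The grey band gives the quartiles of all detected genes and dotted lines mark 2-fold. Among the genes drawn, Gadd45g and Hoxa7 pass 2-fold upward and Cxxc5, Syce1, Stra8 and Dlk1 downward.

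Enzymes that oppose Polycomb gave opposite values for the demethylases of the PRC2 mark. Kdm6b, which is induced by activation, read 543 units in the KO-labelled library and 280 in the WT-labelled library, 1.90-fold higher. Kdm6a read 172 units KO-labelled and 311 WT-labelled, 1.85-fold lower. Kdm6a lies on the X chromosome and is known to escape X inactivation. Its difference, too, cannot be told apart from the difference in sex-linked readings given above. The whole list had 10 lower and 4 higher genes of 14 detected, beside 58.4% lower among all genes, and 0 past 2-fold. Kmt2a, a methyltransferase of active genes, stood at -0.74 on a dim spot, and Kmt2c at -0.24.

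Among genes that DNA methylation or Polycomb keep silent, germline and HOX genes were mostly undetected. Of all 20738 genes with a named probe 13411 were detected, and 58.4% of these were lower. Of 28 germline genes with a named probe 8 were detected, 6 of them lower, with a median of -0.18. Syce1, of the synaptonemal complex, read 24.5 units in the KO-labelled library and 138 in the WT-labelled library, 5.76-fold lower. Stra8, a meiosis gate-keeper, was at least 2.16-fold lower, and Stag3, a meiotic cohesin subunit, stood at 0.60 and Piwil2 at 0.57 on dim spots. Of 29 imprinted genes with a named probe 15 were detected. Of these 12 were lower, with a median of -0.29, and 13 of the 15 were dimmer than 500 units on both arrays. Dlk1 was 3.80-fold lower, at 26.6 units KO-labelled and 98.7 WT-labelled, on a spot above feature number 50000. Igf2r, a receptor gene active on the maternal copy, stood at -0.54 (1420 units KO-labelled and 2030 WT-labelled), and Airn, its antisense partner, at -0.51 ± 0.30 (3 probes). Whether the array probes tell Igf2r and Airn apart where they overlap was not tested. Without spots above feature number 50000 the imprinted median was -0.18. Of 35 HOX genes with a named probe 6 were detected. Hoxa7 was 2.12-fold higher, at 61.7 units KO-labelled and 28.5 WT-labelled. Hoxa9 stood at -0.78 ± 0.79 (2 probes), Hoxb4 at 0.72, and Hoxb9 was at least 1.95-fold lower.

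T cell genes known as PRC2 targets, such as Tbx21, Eomes, Ifng and Il13, had a median of 0.56 over 17 detected. Of these 5 were past 2-fold upward and 0 downward, beside 3.62% and 1.52% of all detected genes. A list of T cell genes tied to DNA methylation or TET enzymes shares many genes with the PRC2 target list. It had a median of 0.76 over 18 detected, with 8 past 2-fold upward, beside the same 3.62%. Among these 8, Il17a and Cd8a were under the floor on the WT-labelled array and so could only read higher. Cd8a is also one of the CD8 T and NK markers. Cdkn2a, the classic Polycomb target in dividing cells, was higher by at least 2.21-fold, with 32.1 units KO-labelled and 10.8 WT-labelled; its feature number is above 50000. These lists hold T helper 1 genes whose direction in these arrays was known when the lists were made, so they are no independent evidence of a change in PRC2 activity, which was not measured. CD8 T and NK markers were higher in the same library.

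**Figure D4:**
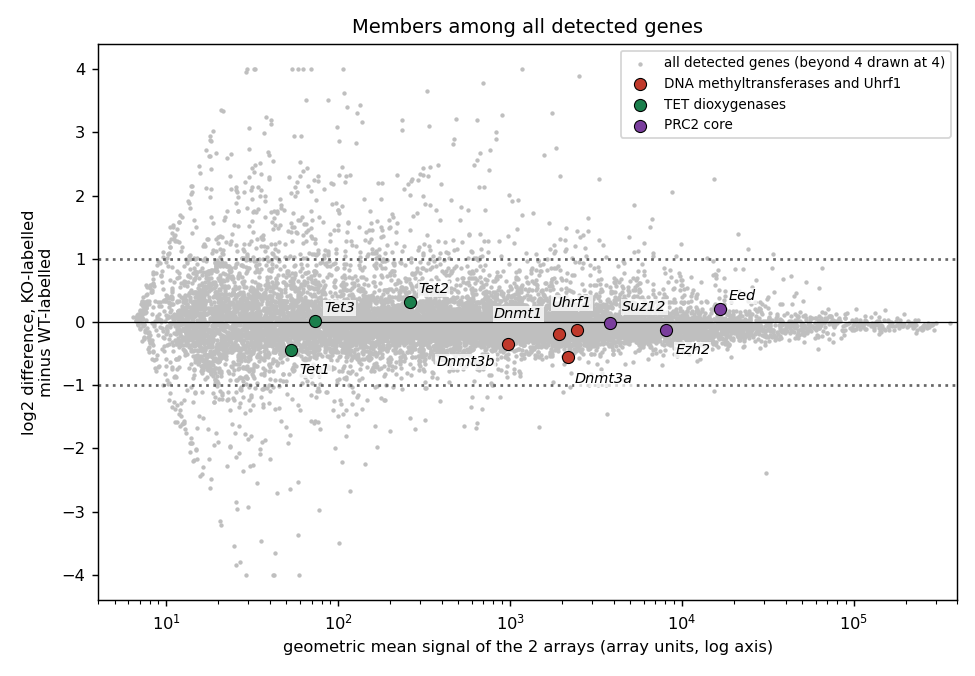
Log2 difference, KO-labelled minus WT-labelled, against the geometric mean signal of the arrays (array units, log axis) for 13411 detected genes in grey and the 10 members in colour. All members lie between the dotted 2-fold lines, from -0.56 (Dnmt3a) to 0.32 (Tet2).

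From lowest to highest, the members' differences ran in the order Dnmt3a, Tet1, Dnmt3b, Dnmt1, Uhrf1, Ezh2, Suz12, Tet3, Eed and Tet2. Uhrf1 and Ezh2 did not differ beyond the spot SD, nor did Suz12 and Tet3 beyond the SD over the probes of Tet3, and the values of Eed and Tet2 overlapped within the SD of Tet2. Over the 12 or 13 alternative settings that gave a value, Dnmt3a stayed between -0.57 and -0.50, Tet1 between -0.48 and -0.34, and Dnmt3b between -0.35 and -0.28. Dnmt1 ran from -0.20 to -0.13, Uhrf1 from -0.14 to -0.07, Ezh2 from -0.13 to -0.07, Eed from 0.20 to 0.26 and Tet2 from 0.13 to 0.41. Suz12 and Tet3 alone changed sign.

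**Figure D5:**
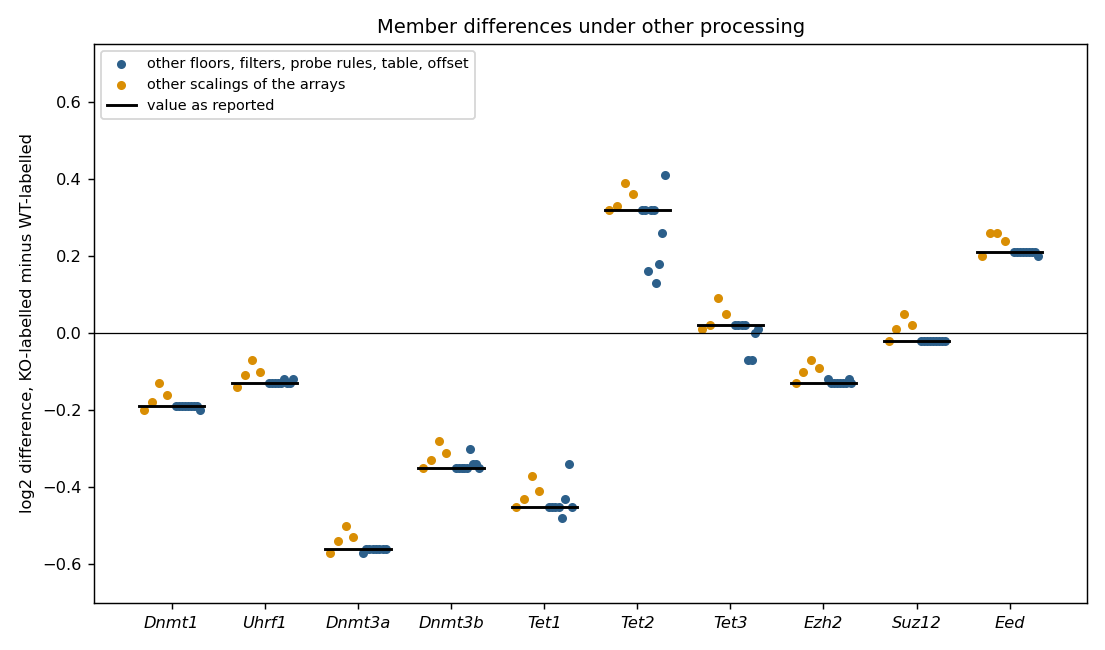
Log2 differences of the members (KO-labelled minus WT-labelled) as reported (black bars), under other scalings of the arrays (orange) and under other floors, filters, probe rules, offset and the authors' table (blue). Only Suz12 and Tet3 have points on both sides of 0.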

How the data were processed

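RNA of 2 cultures, labelled knockout (KO) and wild type (WT), was read on 1-colour arrays, from 100 ng of total RNA each per the labels' protocols. Per the submitters' processing notes, Agilent Feature Extraction 11.5.1.1 was used. The files deposited by the authors hold a linear intensity for each spot, in a column named Raw. No source used here states its background correction, and the files carry no flags or control spots. The authors' second table is close to these intensities times 2.26 (knockout label) and 2.27 (wild type label); how the constants were chosen is unknown.

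Signals were put on the log2 scale, averaged per probe and reduced by each array's 75th percentile (269 units KO-labelled, 263 WT-labelled). A probe was detected above the array's median (14.6 units KO-labelled, 14.2 WT-labelled), a convention; an undetected side was set to that floor and a gene with no detected probe on a side is given as a bound. Genes average their probes detected on at least 1 array. Symbols of the platform annotation were updated through a RefSeq table of GRCm38.p6: 31465 spots had a symbol and 27840 none. Of the 19 member spots 15 matched by accession and 4 by symbol. Promoter windows are RefSeq's; the files name no genome build.

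With 1 array per label, genes were counted at 2-fold. The named genes are the members, genes past 2-fold and the 4 largest differences of each list, and preset partners; Xist, Eif2s3y and those outside this rule were chosen after their values were seen. The members and lists were chosen with earlier results of these data known. The steps were tested on simulated data. Python 3.11.15 was used with pandas 2.3.3, numpy 2.4.6 and statsmodels 0.14.6.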

Additional observations from a re-analysis of the deposited data

How the results depend on the processing

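The counts of members past 2-fold, 0 higher and 0 lower, held under all 15 alternatives, including thresholds of 1.5-fold and 3-fold. The median over the members was -0.13 and moved to -0.07 under cyclic loess, where the median of all genes moved to 0.01; the cause was not tested. Of 1143 values of 92 named genes under the alternatives, 1051 lay within 1 SD of the main value and 92 lay beyond it. The SD was that over probes, or was based on replicate spots where this was larger or there was 1 probe. Each member but Tet2 and Tet3 moved beyond its SD under some setting. As reversed 0 values were counted, which leaves out sign changes of small differences. These included Suz12, Tet3, Tdg, Actb, Hprt, Dnmt3l and Idh1. Dnmt3a has no value without spots above feature number 50000. Counts over all genes, 485 higher and 204 lower of 13411, came from other numbers of genes under some settings. They became 980 and 634 of 17788 with the floor at the 25th percentile, and 136 and 20 of 8718 with it at the 75th. No floor gave 1004 and 638 of 20738, and an offset of 16 units gave 338 and 117 of 13413. Probes detected on both arrays gave 374 and 125 of 12498. Without spots above feature number 50000 the counts were 351 and 105 of 11232. Of the 13411 genes 1029 and 570 passed 1.5-fold, and 215 and 87 passed 3-fold. No paired analysis was possible because each label has 1 array. Signals near the floor limit what can be seen of Tet1, Tet3, the HOX genes and the germline genes.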

Other observations

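Enzymes that feed methyl groups to both systems had 11 lower and 5 higher genes of 16 detected, with a median of -0.17 and 0 past 2-fold. Among all detected genes 58.4% were lower. Mat2a, which makes the methyl donor S-adenosylmethionine, stood at -0.10 ± 0.01 (2 probes) and Ahcy, which clears its product, at -0.18 ± 0.03 (2 probes). Mtrr, which reactivates methionine synthase, read 49.8 units KO-labelled and 79.9 WT-labelled (-0.71, a dim spot above feature number 50000), and Tyms read 161 units KO-labelled and 237 WT-labelled (-0.59). The mitochondrial folate enzyme gene Mthfd2 ran the other way, at 4890 units KO-labelled and 3440 WT-labelled (0.47), as did Mthfd2l (0.56).

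Readers of methylated CpG sites had 5 lower and 2 higher genes of 7 detected, beside 58.4% lower among all genes, with a median of -0.16. Zbtb38 was the lowest at -0.61 ± 0.03 (2 probes), Mbd1 stood at -0.27 ± 0.11 and Mbd3 at -0.19 ± 0.01 (2 probes each), and Mbd2, known for restraining cytokine genes in mouse T cells, at 0.05 ± 0.06 (2 probes).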
